A study of Mus musculus with 6 samples.

Results

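The genes described here encode 42 lysosomal proteins of osteoclasts (OCs), the multinucleated cells that resorb bone. They are proteases, glycosidases, sulfatases, lipid hydrolases, membrane proteins and the transcription factors Tfeb and Tfe3, taken by symbol from a list of lysosomal genes that leaves out Ctsk, Ctss, Lgmn and Neu1. All 42 symbols were found among the 21492 genes of the deposited table, and all 42 were among the 14047 genes tested. RNA-seq was done on 3 libraries of Dcir-/- OCs, numbered 21, 22 and 83, and 3 libraries of WT OCs, numbered 3, 82 and 94, to learn how the lack of DCIR, an inhibitory C-type lectin receptor encoded by Clec4a2, alters gene expression in OCs. The Dcir-/- mice had been backcrossed to C57BL/6J for 12 generations, the WT mice were C57BL/6J mice, and both were 8 to 12 weeks old. WT mice were purchased and then shared a rack with the Dcir-/- mice, so the effects of genotype and of where the mice came from cannot be told apart. Bone marrow cells of both genotypes were cultured with 20 ng/ml of M-CSF, a growth factor of macrophages, and 100 ng/ml of RANKL, the cytokine that drives OC formation. The labels place all cells at day 4 after 2 days of RANKL, and the study's text describes a longer RANKL culture. No source used here states whether libraries of 1 genotype stem from different mice or cultures, and the p-values cover only the spread among these libraries, which may be technical.

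Lysosomes degrade proteins, glycans, lipids and nucleic acids with hydrolases that work at acid pH. Most of these enzymes are tagged with mannose 6-phosphate in the Golgi and carried to the lysosome by receptors, and the lysosomal membrane is lined by heavily glycosylated proteins such as LAMP1 and LAMP2. In OCs, lysosome-related vesicles also fuse with the ruffled border, and acid and hydrolases are released into the space above the bone surface. Many lysosomal genes carry a palindromic E-box in their promoters that is bound by TFEB, TFE3 and MITF.

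Levels are given in CPM, the authors' normalised count scaled to the mean column total, so that 1 CPM stands for 33.6 normalised counts. Differences were tested with limma on log2(CPM + 1) over all tested genes, and log2 fold changes are Dcir-/- over WT OCs with their standard errors (SE). Clec4a2 was at 0.788, 1.15 and 0.496 CPM in Dcir-/- libraries 21, 22 and 83, against 275, 239 and 289 CPM in WT libraries 3, 82 and 94, as the labels give the genotypes. Column totals lay between 33035020 and 34068309, and most values were not whole numbers. The depth of single libraries is unknown. A principal component analysis set WT library 3 (at 35.3) and Dcir-/- library 21 (at -22.4) at opposite ends of its leading axis (53.5% of the variance). The other libraries lay between -8.40 and 7.10 there, and WT library 94 lay apart along the next axis (27.5%). All 12 OC markers were tested, none was at 0, and their summed level was 18107 to 23651 CPM in Dcir-/- OCs, against 17698 to 19977 CPM in WT OCs.

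None of the 42 lysosomal genes passed an adjusted p of 0.05 from limma, in a comparison in which 0.441% of all tested genes did (0.149% higher and 0.292% lower). The smallest adjusted p was 0.136, for Hyal1. At an unadjusted p under 0.05, 10 members were lower in Dcir-/- OCs and 2 were higher, beside 6.68% and 5.82% of all tested genes. The 10 were the cathepsins Ctsc, Ctsd and Ctsh, the membrane proteins Lamp1, Lamp2, Scarb2 and Laptm4a, the saposin precursor Psap, the acid phosphatase Acp2 and the nuclease Pld3, and the 2 were the hyaluronidase Hyal1 and the sulfatase Arsb. In 12 members every Dcir-/- library lay below every WT library, and in 4 every Dcir-/- library lay above, whereas in 26 the groups overlapped. Over all tested genes, 9.34% lay wholly below and 10.5% wholly above, 19.8% together. The 12 were the 10 named above with Ctsb and Tfeb, and the 4 were Hyal1, Manba, Arsb and Galns. By their means, 27 members were lower and 15 higher in Dcir-/- OCs, and 53.9% of all tested genes were higher. The median log2 fold change was -0.08 over the members and 0.01 over all tested genes. For 29 of the 42 members (69.0%) the 95% interval lay within a 1.5-fold change in either direction, compared with 80.5% of all tested genes.

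**Figure D1:**
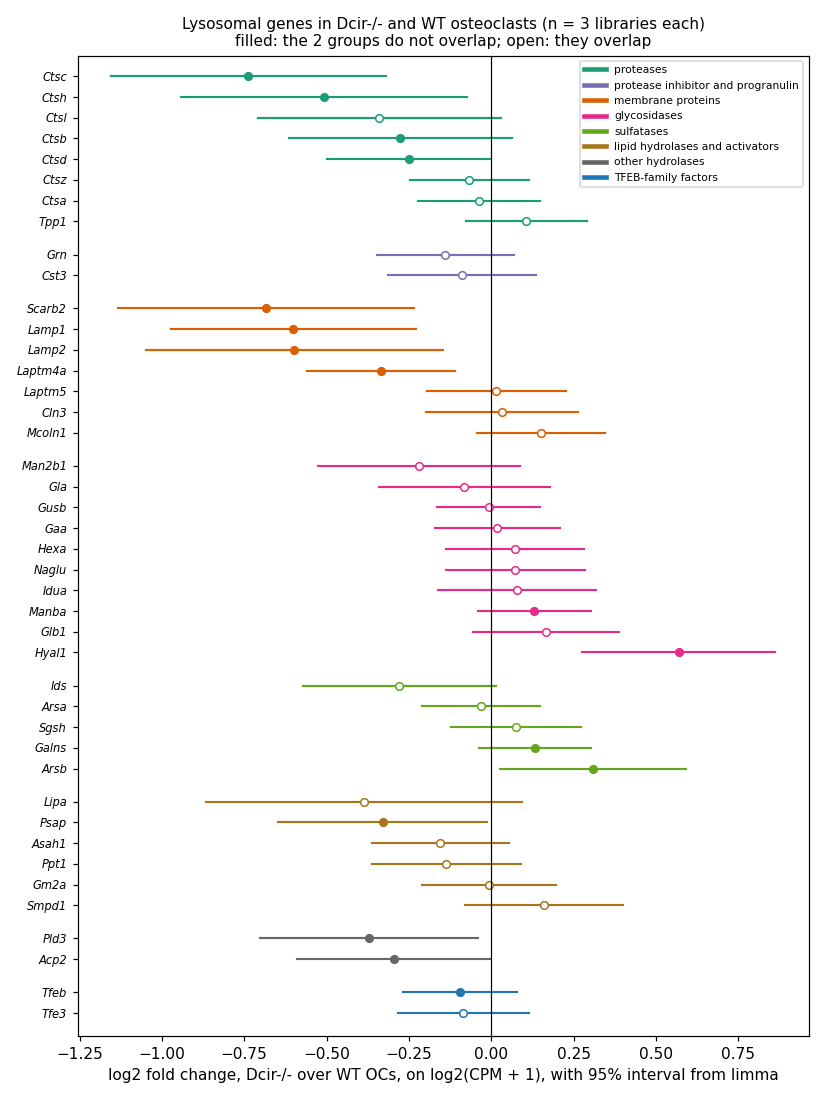
Log2 fold change of each of the 42 lysosomal genes, Dcir-/- over WT OCs, on the scale of log2(CPM + 1), with 95% intervals from limma (lines) and genes grouped by role (colours). Filled points mark the 12 lower and 4 higher genes whose 3 Dcir-/- and 3 WT libraries did not overlap, and Ctsc at -0.74 and Hyal1 at 0.57 lie at the ends.

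WT library 3 held the highest value of 23 of the 42 members (54.8%), compared with 24.8% of all tested genes. The share was much the same in genes of the lysosome outside the members, at 51.6% of 31 other hydrolases and 51.9% of 27 other membrane proteins. It was 23.1% of 13 genes that deliver enzymes to lysosomes and 35.3% of 17 genes of the TFEB family and its control. Dcir-/- library 21 held the lowest value of 14 members (33.3%; 17.2% of all tested genes) and the highest of 12 (28.6%; 17.8%). In all 12 genes that were lower without overlap, WT library 3 was the highest library, and in 9 of them Dcir-/- library 21 was the lowest. Dcir-/- library 21 was also the highest library in all 4 genes that were higher without overlap. The 12 lower genes were named for having every Dcir-/- library below every WT library, and WT library 3 was highest in each. Leaving this library out therefore had to keep them below 0 and bring them nearer to 0. Their median was -0.22 without WT library 3, compared with -0.35 in all libraries. Without WT library 3, Ctsc was the 1 member that passed (adjusted p = 0.0442 from limma), where 0.625% of all tested genes were lower and 0.28% higher. The median of the 4 higher genes was 0.21 without this library and 0.22 with it.

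All 12 OC markers had higher means in Dcir-/- OCs. Their median log2 fold change was 0.15 (0.10 to 0.20 with 1 library left out), 5 were higher without overlap, 4 were higher at an unadjusted p under 0.05 and 0 passed the adjusted p from limma. Over all tested genes, 10.5% were higher without overlap and 5.82% were higher at an unadjusted p under 0.05. Most markers of macrophages, monocytes and neutrophils moved in the same direction as the lower members. Of 16 macrophage markers, 15 were tested, 14 had lower means in Dcir-/- OCs, 4 of them passed (C1qa, C1qc, Apoe and Marco), and the median log2 fold change was -0.79. Their summed level was 5500 to 6334 CPM in Dcir-/- OCs, against 7202 to 10813 CPM in WT OCs, and no marker in the table was at 0. Cx3cr1, a chemokine receptor, was the marker with a higher mean in Dcir-/- OCs, with a log2 fold change of 0.60. It was higher at an unadjusted p under 0.05 from limma and did not pass the adjusted p. Without WT library 3 the median of the macrophage markers was -0.43. The summed level of 10 monocyte markers was 145 to 155 CPM in Dcir-/- OCs, against 205 to 306 CPM in WT OCs, and that of 12 neutrophil markers was 348 to 455 CPM and 631 to 776 CPM. Of the monocyte markers 8 had lower means and 1 of them passed, with a median of -0.77 (-0.63 without WT library 3). All 12 neutrophil markers had lower means and 4 passed, with a median of -0.76 (-0.78 without WT library 3). Over all tested genes, 0.292% were lower and passed. The part of OCs and of these other cell types in the levels of the lysosomal genes was not tested, and in bulk RNA fewer cells of a type and less RNA per cell cannot be told apart.

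**Figure D2:**
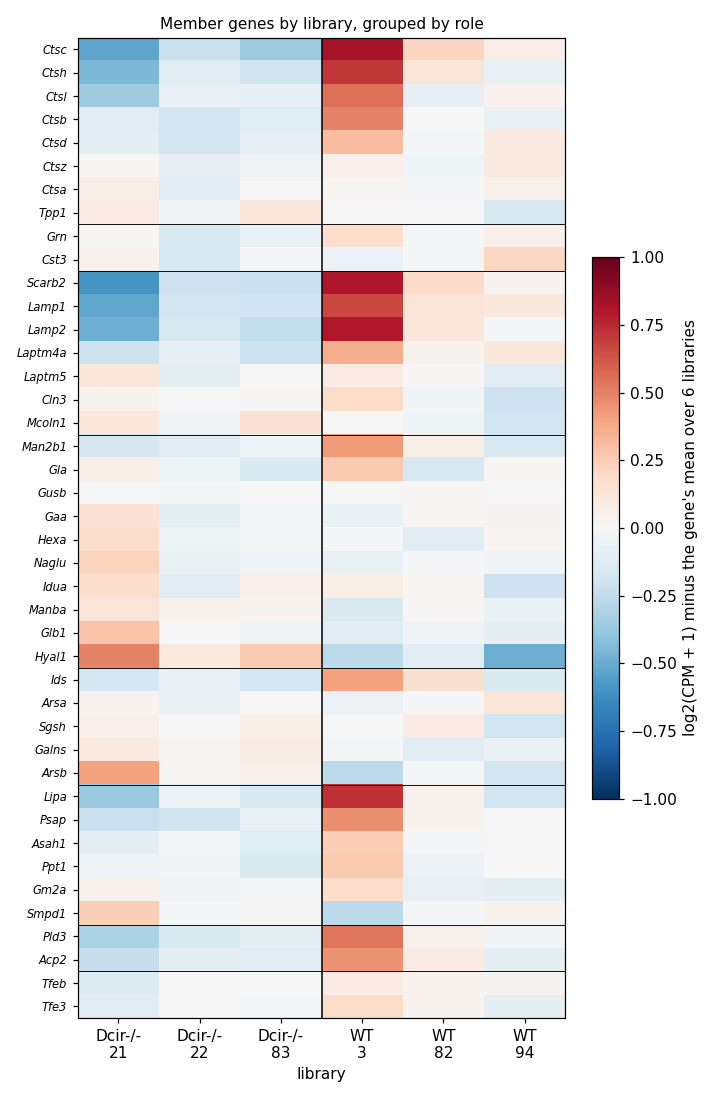
Level of each of the 42 genes (rows, grouped by role) in the 3 Dcir-/- and 3 WT libraries (columns), as log2(CPM + 1) minus the mean of the gene over the 6 libraries. WT library 3 is the highest library in 23 rows, most of them proteases, membrane proteins and lipid hydrolases, and Gusb hardly varies.

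Promoter sequences were looked at for the E-box that the TFEB family binds. Promoters were not used to choose the members. The motif is known from many lysosomal genes, so a higher share in a list of such genes is not an independent observation. Promoters, from 250 bases before to 50 bases after the start in RefSeq (GRCm38.p6), were found for 38 of the 42 members, and Asah1, Ctsb, Ctsh and Galns had no entry. Each gene was counted once, as holding a motif if any of its promoters did. The palindrome CACGTG was in 12 of the 38 (31.6%), compared with 8.09% of 27025 genes with promoters of the same length. The longer palindrome TCACGTGA, which contains it, was in 5 (13.2%), compared with 1.12%. The 5 were Ctsa, Ctsd, Cln3, Gla and Mcoln1, and 1 window of 26 bases around the motif is shown for each, with CACGTG in capitals.
Ctsa, chr2:164833751-164833776 on the plus strand: agcaaactgtCACGTGatgcagatgc
Ctsd, chr7:142387910-142387935 on the minus strand: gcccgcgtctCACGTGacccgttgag
Cln3, chr7:126583342-126583367 on the minus strand: cgggtactgtCACGTGacccccaacc
Gla, chrX:134601184-134601209 on the minus strand: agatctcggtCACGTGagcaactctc
Mcoln1, chr8:3500464-3500489 on the plus strand: gcgccccgctCACGTGaccgcggcgc
The 100 bases before the start are shown for Lamp1, which had the most copies of CACGTG, and for Ctsc and Hyal1, the lowest and the highest member by fold change.
Lamp1, chr8:13159061-13159160 on the plus strand: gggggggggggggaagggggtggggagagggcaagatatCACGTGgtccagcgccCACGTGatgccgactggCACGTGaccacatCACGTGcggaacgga
Ctsc, chr7:88277985-88278084 on the plus strand: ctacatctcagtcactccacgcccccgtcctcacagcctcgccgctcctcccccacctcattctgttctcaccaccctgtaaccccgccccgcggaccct
Hyal1, chr9:107576850-107576949 on the plus strand: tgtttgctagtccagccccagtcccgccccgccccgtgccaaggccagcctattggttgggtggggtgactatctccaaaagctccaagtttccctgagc
Lamp1 had 4 copies, and neither Ctsc nor Hyal1 had one in this stretch. The median log2 fold change was -0.01 over the 12 members with CACGTG and -0.09 over the 26 without it. Of the 12 members with the motif, 2 were lower without overlap and 0 were higher, and of the 26 members without it 8 were lower and 3 higher. A match describes these letters and does not show that a factor was bound.

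Among the 8 proteases, 7 had lower means in Dcir-/- OCs, the median log2 fold change was -0.26 (-0.12 without WT library 3), and none passed the test. Ctsc, which encodes the dipeptidyl peptidase that activates granule serine proteases, lies on chromosome 7 from 88278085 to 88310888. Its level was 84.0, 104 and 94.8 CPM in Dcir-/- libraries 21, 22 and 83, against 216, 141 and 128 CPM in WT libraries 3, 82 and 94. All Dcir-/- values lay below all WT values, and WT library 3 was far above the other WT libraries. The log2 fold change was -0.74 (SE 0.18; adjusted p = 0.163 from limma), and -0.51 without WT library 3. Ctsd, the main aspartic protease of lysosomes, lies on chromosome 7 from 142375911 to 142388038 and was the most abundant protease per length. It had 2711, 2540 and 2738 CPM in Dcir-/- OCs, against 3594, 2867 and 3083 CPM in WT OCs. The groups did not overlap, but the gap between them was smaller than the range of the WT libraries, and the log2 fold change was -0.25 (SE 0.11; adjusted p = 0.397 from limma). Ctsd shares 808 exon bases on the same strand with Gm49369, so their reads may not be told apart.

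The other cysteine cathepsins differed in how far they lay from 0. Ctsh, an aminopeptidase, was at 56.6, 71.9 and 67.5 CPM in Dcir-/- OCs, against 128, 84.4 and 73.8 CPM in WT OCs. The groups were close, at 71.9 and 73.8 CPM, and the log2 fold change was -0.51 (SE 0.19; adjusted p = 0.328 from limma). Ctsb, a broad cysteine protease, was at 2240, 2109 and 2210 CPM in Dcir-/- OCs, against 3386, 2405 and 2280 CPM in WT OCs. Its log2 fold change was -0.28, and -0.10 without WT library 3. Ctsl, which shares 395 exon bases with the pseudogene Gm49230 on the same strand, was at -0.34 with overlapping groups, and at -0.15 without WT library 3. Ctsz, an exopeptidase, averaged 998 ± 31.2 CPM in Dcir-/- OCs, against 1046 ± 51.1 CPM in WT OCs (SD, n = 3 each), and Ctsa, the carboxypeptidase that protects beta-galactosidase and neuraminidase, averaged 1154 ± 67.5 and 1183 ± 24.2 CPM. For these last enzymes the 95% intervals ran from -0.25 to 0.11 and from -0.22 to 0.15. Ctsa shares 495 exon bases on the opposite strand with Pltp, which was lower in Dcir-/- OCs (log2 fold change -1.03; adjusted p = 0.0258 from limma). Ctsb shares 774 with Fdft1 on the opposite strand. The strand setting of the counting is not given, so the part of such reads in these levels is unknown. Tpp1, a serine protease that removes tripeptides, was the protease with a higher mean, at 432, 399 and 439 CPM in Dcir-/- OCs, against 406, 409 and 365 CPM in WT OCs, and its groups overlapped.

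Cst3 encodes cystatin C, a secreted inhibitor of cysteine cathepsins, and Grn encodes progranulin, which is cleaved in lysosomes. The Dcir-/- and WT libraries overlapped for both genes. Grn, on chromosome 11 from 102430315 to 102437048, had 1414, 1254 and 1342 CPM in Dcir-/- OCs, against 1584, 1384 and 1451 CPM in WT OCs. The log2 fold change was -0.14 (SE 0.09; adjusted p = 0.594 from limma). Cst3 averaged 753 ± 53.5 CPM in Dcir-/- OCs, against 803 ± 79.9 CPM in WT OCs (SD, n = 3 each).

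The membrane proteins comprised 4 genes with lower values in every Dcir-/- library and 3 with overlapping groups. Lamp1, on chromosome 8 from 13159161 to 13175338, encodes a main glycoprotein of the lysosomal membrane. It had 512, 646 and 639 CPM in Dcir-/- OCs, against 1169, 803 and 788 CPM in WT OCs. The groups did not overlap, but the gap between them was smaller than the range of the WT libraries. The log2 fold change was -0.60 (SE 0.16; adjusted p = 0.194 from limma), or -0.42 without WT library 3. Lamp2, the receptor of chaperone-mediated autophagy in 1 of its isoforms, had 144, 181 and 170 CPM in Dcir-/- OCs, against 353, 218 and 200 CPM in WT OCs, again with WT library 3 far above the rest. Scarb2, which encodes LIMP-2, the carrier of glucocerebrosidase, had 43.6, 57.1 and 56.6 CPM in Dcir-/- OCs, against 117, 75.8 and 67.6 CPM in WT OCs. The log2 fold changes were -0.60 (SE 0.20) for Lamp2 and -0.68 (SE 0.20) for Scarb2, with adjusted p of 0.273 and 0.216 from limma. Laptm4a, a small protein of late endosomes and lysosomes, had 171, 186 and 169 CPM in Dcir-/- OCs, against 254, 202 and 212 CPM in WT OCs. Its libraries were closer together than those of the 3 other genes, and the log2 fold change was -0.34 (SE 0.10; adjusted p = 0.224 from limma).

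In the other 3 membrane proteins the groups overlapped. Laptm5, a membrane protein of blood cells on chromosome 4 from 130913125 to 130936141, had the most CPM of this group, with 1330, 1151 and 1236 CPM in Dcir-/- OCs, against 1301, 1240 and 1137 CPM in WT OCs. Its log2 fold change was 0.01 (SE 0.09; adjusted p = 0.97 from limma), and the 95% interval ran from -0.20 to 0.23. Cln3, the gene of juvenile Batten disease, averaged 129 ± 1.46 CPM in Dcir-/- OCs, against 127 ± 17.3 CPM in WT OCs, and Mcoln1, which encodes the cation channel TRPML1, averaged 91.0 ± 5.68 and 81.9 ± 5.63 CPM (SD, n = 3 each).

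**Figure D3:**
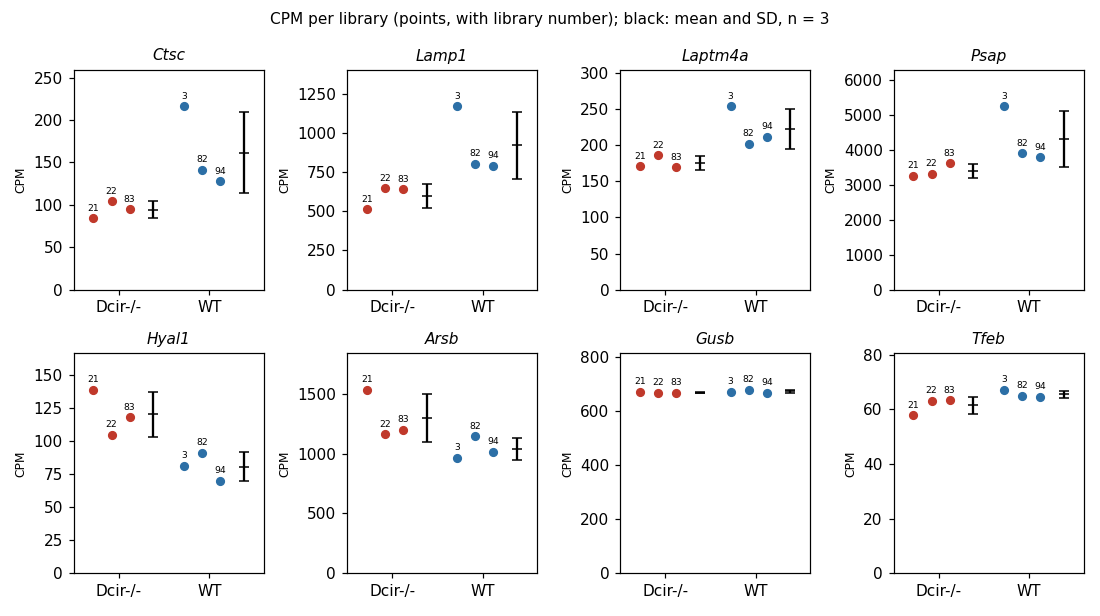
Level in CPM (vertical axes from 0) of 8 lysosomal genes in each Dcir-/- library (red, left) and each WT library (blue, right), with library numbers and the mean and SD (black, n = 3). Ctsc, Lamp1, Laptm4a and Psap lie lower in all Dcir-/- libraries with WT library 3 on top, Hyal1 and Arsb lie higher with Dcir-/- library 21 on top, Gusb is between 668 and 679 CPM in all libraries, and Tfeb lies between 57.8 and 67.0 CPM.

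Of the 10 glycosidases, 7 had higher means in Dcir-/- OCs, none passed the test, and the median log2 fold change was 0.07, or -0.01 without Dcir-/- library 21. Hyal1, which cleaves hyaluronan, lies on chromosome 9 from 107576927 to 107581710. It had 139, 105 and 118 CPM in Dcir-/- OCs, against 81.5, 91.2 and 69.8 CPM in WT OCs. The groups did not overlap, and the log2 fold change was 0.57 (SE 0.13; adjusted p = 0.136 from limma), and between 0.46 and 0.66 when any 1 library was left out. Hyal1 shares 1920 of its 3777 exon bases with Naa80 and 159 with Hyal3 on the same strand. Naa80, which encodes an actin acetyltransferase, had 178, 138 and 147 CPM in Dcir-/- OCs, against 101, 121 and 122 CPM in WT OCs. How reads on the shared bases were counted is not given, so the reads of these genes may not be told apart. Manba, a beta-mannosidase, was also higher without overlap, at 173, 162 and 161 CPM in Dcir-/- OCs, against 142, 159 and 151 CPM in WT OCs. The groups were close, with the nearest libraries at 161 and 159 CPM.

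Hexa, the alpha subunit of beta-hexosaminidase, was the most abundant glycosidase by CPM. It lies on chromosome 9 from 59539540 to 59565109 and had 1314, 1123 and 1144 CPM in Dcir-/- OCs, against 1146, 1076 and 1179 CPM in WT OCs. The groups overlapped, and the log2 fold change was 0.07 (SE 0.09; adjusted p = 0.807 from limma). Gusb, the beta-glucuronidase, was the steadiest, with 672, 668 and 669 CPM in Dcir-/- OCs, against 674, 679 and 669 CPM in WT OCs. Its 95% interval ran from -0.16 to 0.15 on the log2 scale. Of the remaining glycosidases, all with overlapping groups, Glb1 (beta-galactosidase) was at 0.16, Idua and Naglu (both enzymes of heparan sulfate breakdown) at 0.08 and 0.07, Gaa (acid alpha-glucosidase) at 0.02, Gla (alpha-galactosidase) at -0.08 and Man2b1 (alpha-mannosidase) at -0.22 in log2 fold change. Without WT library 3, Man2b1 was at -0.06, Gla at 0.03 and Gaa at -0.01, and Naglu was at -0.02 and Idua at -0.01 at their lowest with 1 library left out. Glb1 shares 165 exon bases with Tmppe on the same strand.

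Among the 5 sulfatases, 3 had higher means in Dcir-/- OCs. Arsb, which removes sulfate from dermatan and chondroitin sulfate, lies on chromosome 13 from 93771630 to 93943016. It had 1529, 1162 and 1196 CPM in Dcir-/- OCs, against 965, 1143 and 1014 CPM in WT OCs. The groups came within 19 CPM of each other, Dcir-/- library 21 was far above the rest, and the log2 fold change was 0.31 (SE 0.12; adjusted p = 0.354 from limma), or 0.18 at its lowest with 1 library left out. Arsb overlaps Gm26527 on the opposite strand by 1948 exon bases. Galns, which acts on keratan sulfate, was at 60.9, 57.6 and 59.8 CPM in Dcir-/- OCs, against 55.9, 52.4 and 54.0 CPM in WT OCs, a small difference without overlap (log2 fold change 0.13, SE 0.07). The groups overlapped for Sgsh and Arsa, at 0.07 and -0.03, and for Ids, which cleaves sulfate from heparan and dermatan sulfate and was at -0.28, or -0.15 without WT library 3.

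Of 6 genes for lipid breakdown, 5 had lower means in Dcir-/- OCs, and the median log2 fold change was -0.15, or -0.05 without WT library 3. Psap, the precursor of the saposins that present sphingolipids to their hydrolases, lies on chromosome 10 from 60277627 to 60302597 and had the highest CPM of all members. Its level was 3252, 3317 and 3621 CPM in Dcir-/- OCs, against 5250, 3900 and 3792 CPM in WT OCs. The groups did not overlap, WT library 3 stood far above the other libraries, and the log2 fold change was -0.33 (SE 0.14; adjusted p = 0.378 from limma), or -0.18 without that library. Lipa, the acid lipase that frees cholesterol from its esters, had 453, 564 and 525 CPM in Dcir-/- OCs, against 970, 604 and 514 CPM in WT OCs. WT library 94 lay within the Dcir-/- range, and the log2 fold change was -0.39, or -0.12 without WT library 3. The groups also overlapped for Asah1 (acid ceramidase) at -0.15, Ppt1 (which removes palmitate from proteins) at -0.14, Gm2a (the GM2 activator) at -0.01 and Smpd1 (acid sphingomyelinase) at 0.16, and without WT library 3 these were at -0.07, -0.04, 0.08 and 0.07.

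The remaining hydrolases were both lower in every Dcir-/- library. Pld3, a nuclease of endolysosomes on chromosome 7 from 27532000 to 27553218, had 268, 305 and 312 CPM in Dcir-/- OCs, against 485, 345 and 329 CPM in WT OCs, and its log2 fold change was -0.37 (SE 0.14; adjusted p = 0.347 from limma). Acp2, lysosomal acid phosphatase, had 167, 183 and 180 CPM in Dcir-/- OCs, against 267, 207 and 184 CPM in WT OCs, with a log2 fold change of -0.30 (SE 0.13). In both genes WT library 3 was the highest library, and without it the log2 fold changes were -0.20 and -0.15.

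The transcription factors Tfeb and Tfe3 lay near 0. Tfeb, on chromosome 17 from 47737030 to 47792419, had 57.8, 63.1 and 63.3 CPM in Dcir-/- OCs, against 67.0, 65.1 and 64.6 CPM in WT OCs. These groups did not overlap, but the nearest libraries were 63.3 and 64.6 CPM, and the log2 fold change was -0.09 (SE 0.08; adjusted p = 0.671 from limma). Tfe3, on the X chromosome from 7762560 to 7775202, had 117, 126 and 125 CPM in Dcir-/- OCs, against 143, 129 and 118 CPM in WT OCs. Its groups overlapped, and its log2 fold change was -0.08 (SE 0.09; adjusted p = 0.755 from limma), or -0.01 without WT library 3. The activity of these factors depends on phosphorylation and on their place in the cell, which RNA levels do not show.

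Per length of exons, 7 members were among the top 100 tested genes. Psap was at rank 15 with 1238 CPM per kb in Dcir-/- OCs and 1572 CPM per kb in WT OCs, and Ctsd was at rank 17 with 1133 and 1353 CPM per kb. Ctsz, Cst3, Hexa, Grn and Ctsb followed at ranks 36, 47, 48, 83 and 84, and Scarb2 was the lowest member, at rank 5266 with 8.34 and 13.8 CPM per kb. Summed over the 42 members, the level was 23555, 22305 and 23321 CPM in Dcir-/- libraries 21, 22 and 83, against 29318, 24306 and 24147 CPM in WT libraries 3, 82 and 94. The members therefore took 2.31% ± 0.0338 of the column total in Dcir-/- OCs and 2.59% ± 0.270 in WT OCs (SD, n = 3 each). The WT libraries other than 3 were 591 CPM or more above the highest Dcir-/- library. Psap, Ctsd and Ctsb, all among the genes lower without overlap, had the highest CPM of the members and weigh most in this sum. By their means, 15 of the 42 members were higher in Dcir-/- OCs.

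**Figure D4:**
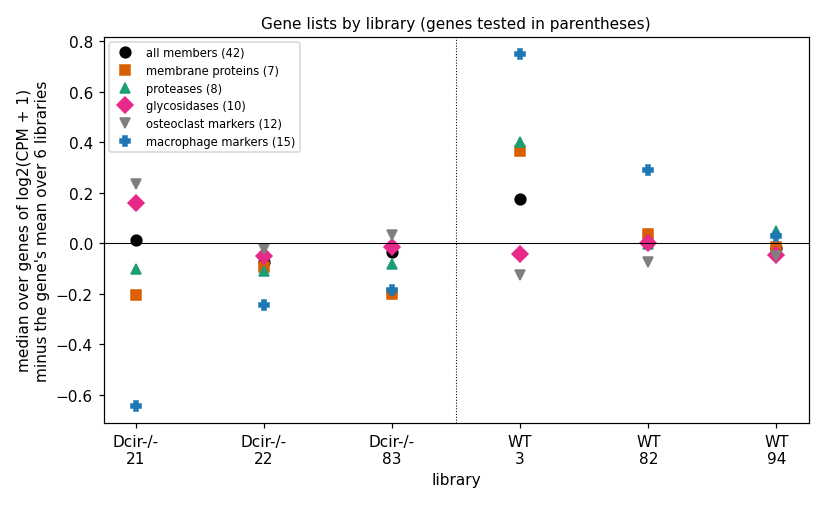
Median over the genes of each list of log2(CPM + 1) minus the mean of the gene over 6 libraries, for the 3 Dcir-/- (left) and 3 WT libraries (right), with the number of genes tested in parentheses. In WT library 3, macrophage markers, proteases and membrane proteins lie above 0 and glycosidases and OC markers below it, and in Dcir-/- library 21 macrophage markers lie lowest and OC markers and glycosidases highest.

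Of other genes of the lysosome, none of the 88 tested in 4 lists passed an adjusted p of 0.05 from limma. Of 31 other hydrolases, which include the OC markers Ctsk and Acp5, 22 had lower and 9 higher means in Dcir-/- OCs. Their median log2 fold change was -0.10, and 8 were lower at an unadjusted p under 0.05. Over all tested genes, 6.68% were lower and 5.82% higher at that p. Pla2g15, a phospholipase of lysosomes, had 122, 122 and 128 CPM in Dcir-/- OCs, against 170, 161 and 160 CPM in WT OCs. The libraries of each group lay close together, and its log2 fold change of -0.39 (SE 0.07) had an adjusted p of 0.0649 from limma. Lgmn, the asparaginyl endopeptidase legumain, was at -0.65 (SE 0.17), and the cysteine cathepsin Ctsf was at -0.33 (SE 0.10). Of 27 other membrane proteins, 15 had lower and 12 higher means, with a median of -0.03 (0.01 without WT library 3), and at an unadjusted p under 0.05 there were 2 lower and 1 higher. Mfsd1, a lysosomal transporter, was at -0.37 (SE 0.11), Slc11a1, a metal transporter of phagosomes, at -0.65 (SE 0.26), and Slc38a9, which passes on the amino acid content of the lysosome to mTORC1, at 0.22 (SE 0.08).

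Of 13 genes that deliver enzymes to lysosomes, 6 had higher and 7 lower means, the median log2 fold change was -0.01 (-0.03 to 0.01 with 1 library left out), and 1 was higher at an unadjusted p under 0.05. Gnptab, which encodes the transferase that begins the mannose 6-phosphate tag, had 848, 749 and 767 CPM in Dcir-/- OCs, against 667, 703 and 559 CPM in WT OCs. The groups did not overlap, and the log2 fold change was 0.30 (SE 0.10; adjusted p = 0.294 from limma). Sort1, a sorting receptor, was at -0.45 (SE 0.32) and Gga3, an adaptor, at 0.08 (SE 0.09). Of 17 tested genes of the TFEB family and its control, 11 had lower means, the log2 fold changes lay between -0.19 and 0.19, and 1 was higher at an unadjusted p under 0.05. Zkscan3, a repressor of lysosomal genes, was at 0.19 (SE 0.08), Tfec, a TFEB relative of myeloid cells, at -0.16 (SE 0.08), and Lamtor5, a subunit of the Ragulator complex, at -0.19 (SE 0.10).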

How the data were processed

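RNA of 3 Dcir-/- and 3 WT libraries was compared. Reads were trimmed with Trim Galore 0.6.6 and aligned to mm10 with HISAT2 2.2.0, per the submitters' processing notes, and the authors counted reads on exons with Rsubread and compared the groups with edgeR. The deposited values are taken as the authors' normalised counts, a signal in which 95.8% to 99.8% of values per library are not whole. The study's methods say that edgeR was used to normalise, and how is not stated. That they were set to a common library size is inferred from their near-equal totals. The strand setting of the counting is not given in the sources used here. The deposited log2 fold changes (WT over Dcir-/-) and p-values (FDR) of the authors were not used.

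CPM was the normalised count over the mean column total of 33577739. Genes with at least 1 CPM in 3 libraries were compared on log2(CPM + 1) with limma 3.58.1 (trend) in R 4.3.3, with genotype as the only term and Benjamini-Hochberg adjustment over 14047 genes at 0.05. The script was tested on simulated data. Fold changes on this scale understate those of low genes. Positions and exon lengths came from GENCODE M21, to which 21449 of 21492 identifiers matched. Members and lists were chosen with earlier results of these data known. Per role, the members with the smallest p and the highest CPM, with Tfeb and Tfe3, are given in full by rule, and per list the 3 genes with the smallest p. Other members with values in every library were named after their values were seen. Alternatives covered the pseudocount, filter, scaling, limma's robust and weighted fits and each library left out.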

Additional observations from a re-analysis of the deposited data

How the results depend on the processing

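The 42 lysosomal genes gave 0 higher and 0 lower calls in limma with pseudocounts of 0.1 and 5 CPM, with no filter or one of 5 CPM, with TMM scaling or median centring, and with robust variance or array weights. With each library left out in turn, 0 members were higher and 0 to 1 lower, and the 1 was Ctsc without WT library 3 (log2 fold change -0.51, adjusted p = 0.0442 from limma). The median over the members stayed between -0.10 and -0.05 with 1 library left out. Of the members without overlap, 12 lower and 4 higher in all libraries, 12 to 17 were lower and 4 to 7 higher with 1 library left out, with 17 lower without WT library 82 or 94 and 7 higher without WT library 3. With a library left out these counts can only stay or rise, because fewer libraries are easier to separate. The shares over all tested genes were not computed for these settings, so a rise says nothing particular about the members. Median centring gave 10 lower and 5 higher, and TMM scaling 11 and 4. The 62 calls over all tested genes became 41 with a pseudocount of 5 CPM, 33 with a filter of 5 CPM, 41 with TMM scaling and 39 with array weights, and 2 to 126 with 1 library left out. They were 8, 2 and 6 without Dcir-/- libraries 21, 22 and 83, 126 without WT library 3 and 9 without WT library 82. The cause was not tested. The members whose log2 fold change crossed 0 under any of these settings lay within 0.0816 of 0 in all libraries. No paired analysis was possible because the 2 genotypes share no library number. The normalised values hide the depth of each library.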
